A study of Mus musculus with 27 samples.

Results

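The collagen chain genes were followed across limb buds and other tissues of the mouse embryo and across limb bud mesenchyme made from mouse embryonic stem (ES) cells. They were taken by symbol alone, as every gene named Col, a number, a and a number, which gave 43 genes of the 23279 in the expression table. By the collagen type of their symbol they were grouped as 11 fibrillar chains (types I, II, III, V, XI, XXIV and XXVII), 6 type IV chains of basement membranes, 9 chains of fibril-associated collagens (FACIT: types IX, XII, XIV, XVI, XIX, XX and XXII), 6 type VI chains and 11 other chains. Embryonic tissue came from Slc:ICR embryos and was not sorted: forelimb buds (FLB) and hindlimb buds (HLB) labelled E10.0, called early here, FLB and HLB of E10.5, and, from the same later stage, branchial arch (BA), cardiac tissue (Ca) and tail bud (TB). The labels put both early buds on 1 day, but the study's own text places the early FLB at a younger stage than the early HLB. ES-FLB and ES-HLB are mesenchymal cells sorted for green fluorescence on day 9 from organoids of the EB5 Hand2::GFP +/- line, in which 1 copy of Hand2, a gene of posterior limb mesenchyme, drives GFP. Both protocols used BMP4 and Matrigel at the start and the BMP receptor inhibitor LDN193189 and then a Wnt signal later. Retinoic acid was added for ES-FLB and a retinoic acid receptor antagonist for ES-HLB. By the study's methods, the medium of both also held hydrocortisone and methylcellulose from the LDN193189 step until day 9. All ES libraries came from that 1 reporter line, so the line, its strain, the culture medium, the Matrigel and the sort cannot be told apart from growth in vitro.

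Collagens are trimers of chains that share Gly-X-Y repeats, and each type is made from 1 or more chain genes. Fibrillar collagens form the banded fibres of connective tissue and cartilage, type IV forms the network of basement membranes, FACIT collagens sit on the surface of fibrils, and type VI forms beaded microfilaments around mesenchymal cells. In the limb bud, loose mesenchyme with types I and III surrounds the condensations that will turn to cartilage and make types II, IX and XI, and the ectoderm and the vessels lie on type IV networks.

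Each group had 3 libraries. The second E10.5 HLB library was left out because it held no value for any gene on several chromosomes, which leaves 2 there and 26 libraries in all. Depth, read off the spacing of the low values, was 19642244 to 22142300 reads in the early limb buds and 5543755 to 8541930 in the others, so that 3 reads were worth 0.135 to 0.541 CPM, that is, counts scaled to a total of 1000000 in each library. Depth and stage therefore cannot be told apart between the early limb buds and the other groups. Markers followed the labels: Tbx5, the forelimb gene, averaged 69.3 to 161 CPM in the forelimb groups and at most 3.09 in the hindlimb groups, and 7 heart muscle genes summed to 14079 to 16760 in Ca and to at most 23.2 elsewhere. Levels below are CPM rescaled between libraries by trimmed means (scaled CPM), and a log2 difference is a difference of group means of log2(scaled CPM + 0.5) with its standard error (SE), so that differences of low genes are understated. A gene entered limma's test if 3 or more libraries of a comparison reached 1 CPM. A gene was called at an adjusted p below 0.001 between ES and limb bud groups and between stages, and below 0.05 elsewhere. The origin of replicates from separate litters or cultures is not stated, so the p-values measure the spread between these libraries only.

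To place the genes on the genome, the stretch just before the annotated start was read for the 3 abundant type VI chains and Col3a1, which were among the largest differences between ES and limb bud groups, for Col1a2, and for Col18a1, which went the other way. These are RefSeq sequences of build GRCm38.p6 (mm10), 5′ to 3′ on the gene's strand, and each stretch was searched on both strands. Capitals mark a TATA box motif, TATAAA, a box motif with the letters CCAAT (printed as ATTGG where it lies on the other strand) and a GC box motif, GGGCGG, which then reads CCGCCC.
Col6a1, chr10:76726045-76726294, minus strand: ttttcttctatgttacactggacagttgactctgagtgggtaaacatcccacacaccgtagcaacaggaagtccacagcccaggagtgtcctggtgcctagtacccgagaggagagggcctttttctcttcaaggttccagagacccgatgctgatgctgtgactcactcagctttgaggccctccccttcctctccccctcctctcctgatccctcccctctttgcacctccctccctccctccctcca
Col6a2, chr10:76623631-76623880, minus strand: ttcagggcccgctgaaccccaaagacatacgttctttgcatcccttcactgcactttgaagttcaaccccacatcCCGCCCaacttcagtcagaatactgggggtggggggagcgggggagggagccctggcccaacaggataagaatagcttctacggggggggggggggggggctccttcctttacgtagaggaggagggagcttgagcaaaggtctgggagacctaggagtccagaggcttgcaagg
Col6a3, chr1:90844002-90844221, minus strand: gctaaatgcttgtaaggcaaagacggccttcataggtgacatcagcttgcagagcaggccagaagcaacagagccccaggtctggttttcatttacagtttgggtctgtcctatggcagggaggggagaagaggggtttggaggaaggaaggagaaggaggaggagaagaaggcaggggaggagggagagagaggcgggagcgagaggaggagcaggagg
Col3a1, chr1:45311288-45311537, plus strand: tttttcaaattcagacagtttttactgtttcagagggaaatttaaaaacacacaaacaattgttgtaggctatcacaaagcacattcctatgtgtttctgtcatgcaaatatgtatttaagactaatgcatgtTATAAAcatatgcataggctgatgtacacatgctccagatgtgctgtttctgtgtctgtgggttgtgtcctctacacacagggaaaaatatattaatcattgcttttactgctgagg
Col1a2, chr6:4505368-4505617, plus strand: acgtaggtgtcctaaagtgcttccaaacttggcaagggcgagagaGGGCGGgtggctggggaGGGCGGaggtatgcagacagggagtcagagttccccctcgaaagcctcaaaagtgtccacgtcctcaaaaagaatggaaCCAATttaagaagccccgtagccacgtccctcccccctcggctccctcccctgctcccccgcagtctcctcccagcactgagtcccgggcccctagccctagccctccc
Col18a1, chr10:77166531-77166780, minus strand: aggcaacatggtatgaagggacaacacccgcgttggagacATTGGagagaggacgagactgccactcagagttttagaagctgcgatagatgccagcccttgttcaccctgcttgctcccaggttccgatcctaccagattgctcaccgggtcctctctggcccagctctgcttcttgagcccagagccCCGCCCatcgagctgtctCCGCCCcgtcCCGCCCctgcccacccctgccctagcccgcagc
No capitals stand in the stretches of Col6a1 and Col6a3, and Col6a2 has 1 GGGCGG on the other strand. Col3a1 has 1 TATAAA and only 35.2% G and C, against 56.0 to 62.0% in the other 5. Windows from 250 bases before to 50 after a start were also searched, and 35 collagen genes had 38 of them. TATAAA was in 13.6% of all 32851 windows and in 5 of the 38, CCAAT in 37.4% and 13, and GGGCGG in 35.7% and 23. The collagen windows had a median of 59.8% G and C against 52.7% over all windows, so these shares are not set against each other. In the printed stretches no match overlaps one of another motif. A match is a description of letters, and nothing about a factor follows from a match or from its absence.

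Several collagen genes lie next to each other. Col4a1 and Col4a2 on chromosome 8 start head to head with their transcripts overlapping by 85 bases, and Col4a5 and Col4a6 on the X chromosome start 1274 bases apart. Col6a1 and Col6a2 follow each other on chromosome 10 with 85161 bases between them, while Col3a1 and Col5a2 on chromosome 1 meet tail to tail across 24624 bases. The exons of Col4a1 and Col4a2 share only 22 bases, and the strand setting of the authors' counting is not stated, so reads there cannot be told apart.

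Collagen transcripts made up a larger share of the RNA in the ES-derived cells than in the limb buds. Summed over the 43 genes, scaled CPM was 2850 ± 286 in early FLB and 2771 ± 140 in early HLB, 3756 ± 90.4 in E10.5 FLB (SD, n = 3 each) and 3204 ± 72.8 in E10.5 HLB (n = 2). In ES-FLB it was 8607 ± 347 and in ES-HLB 10705 ± 338 (n = 3 each). Every ES library, the lowest at 8351, lay above every embryonic library, the highest of which was a Ca library at 5914. The ratio of means was 3.02 for ES-FLB and 3.86 for ES-HLB against the early buds and 2.29 and 3.34 against the E10.5 buds. Without rescaling, on CPM as deposited, these ratios were 3.74, 4.61, 2.41 and 3.71. In unsorted tissue, fewer cells of a type and less RNA per cell cannot be told apart. Markers of blood, vessel and ectodermal cells, given below, were lower in the sorted ES cells.

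**Figure D1:**
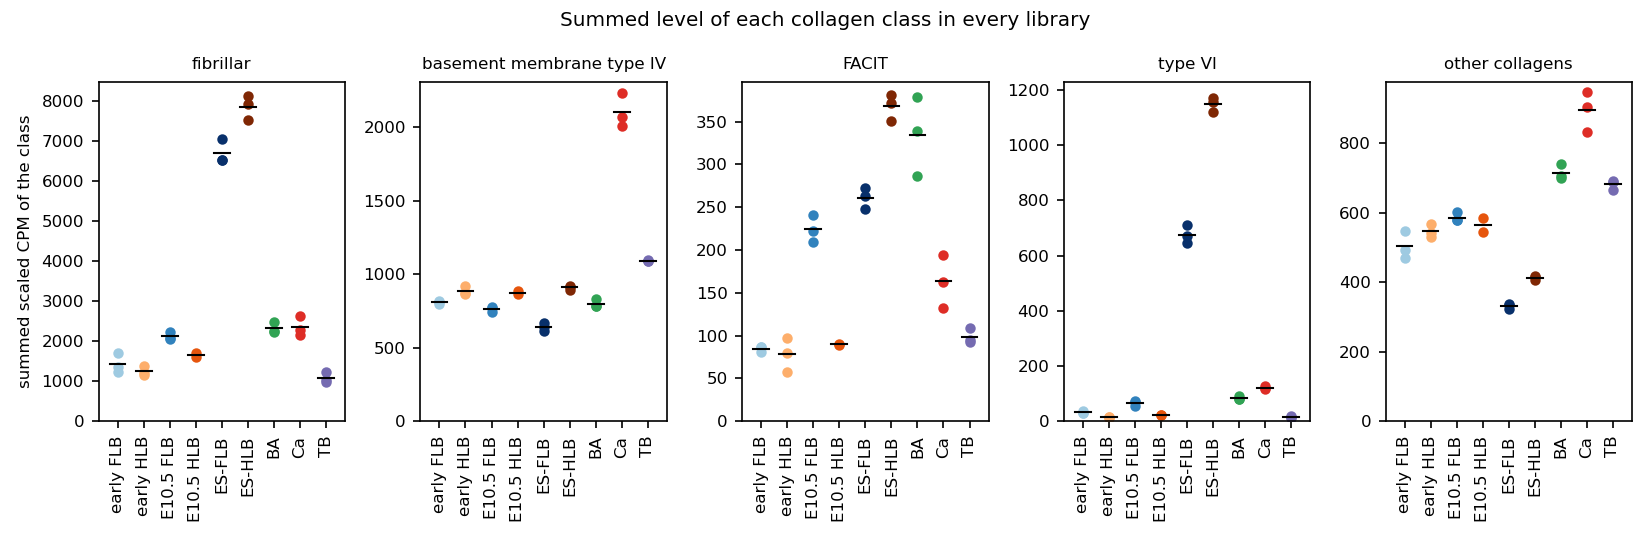
Summed scaled CPM of the collagen genes of each class in each of the 26 libraries, with 1 panel for each class, groups along the horizontal axis, 1 point for each library and a bar at the group mean. Fibrillar and type VI sums were higher in all 6 ES libraries than in any embryonic library, type IV sums were highest in Ca, and the sum of the other chains was lowest in ES-FLB.

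The classes differed in how far they rose. Fibrillar chains summed to 6699 ± 306 in ES-FLB and 7863 ± 300 in ES-HLB against 1244 to 2117 in the means of the limb bud groups. Type VI moved by the largest ratio, from means of 14.9 to 67.4 in the limb buds to 676 ± 31.7 in ES-FLB and 1151 ± 26.6 in ES-HLB, ratios of 21.2 and 77.4 against the early buds and 10.02 and 49.9 against the E10.5 buds. FACIT sums were 261 ± 12.6 and 368 ± 15.4 against 78.2 to 224. Type IV sums were 641 ± 28.7 and 910 ± 13.8 against 761 to 886, and the other chains summed to 331 ± 7.63 and 413 ± 5.67 against 503 to 586, lower in each ES library than in any limb bud library. As a share of all collagen CPM, fibrillar chains took 77.8% in ES-FLB and 73.4% in ES-HLB against 44.8 to 56.4% in the limb bud groups, and Col3a1 alone took 44.3% and 37.3% against 15.9 to 19.1%. Type VI took 7.85% and 10.8% against 0.538 to 1.79%.

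Of the 43 genes, 29 reached a mean of 16 scaled CPM in at least 1 group: 9 of the 11 fibrillar chains, 4 of the 6 type IV chains, 6 of the 9 FACIT chains, 3 of the 6 type VI chains and 7 of the 11 others. Another 6 stayed under 1 CPM in every group mean, and Col10a1, the chain of hypertrophic cartilage, reached 3 reads in no library. The group with the highest mean was ES-HLB for 16 genes, Ca for 10, ES-FLB for 7, BA for 6, and E10.5 FLB and TB for 2 each. The ratio of the highest to the lowest group mean was 116 for Col6a3, 113 for Col6a1, 66.5 for Col8a2, 44.2 for Col14a1 and 39.5 for Col12a1, but only 2.96 for Col4a1. Divided by the length of the RefSeq transcript, Col3a1 led in both ES groups at 685 and 718 scaled CPM per kb, and Col4a1 led in Ca and TB at 169.6 and 99.1. Both also led there when the length of all annotated exons was used, at 388 and 407 and at 150.3 and 87.8 per kb. In the limb buds the leading chain depended on the length chosen: by transcript it was Col3a1 in both early groups and in E10.5 HLB (93.2, 95.3 and 108.4 per kb) and Col1a2 in E10.5 FLB (122.0), whereas by all exons it was Col4a1 in each of the 4 groups (59.97 to 75.05 per kb).

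**Figure D2:**
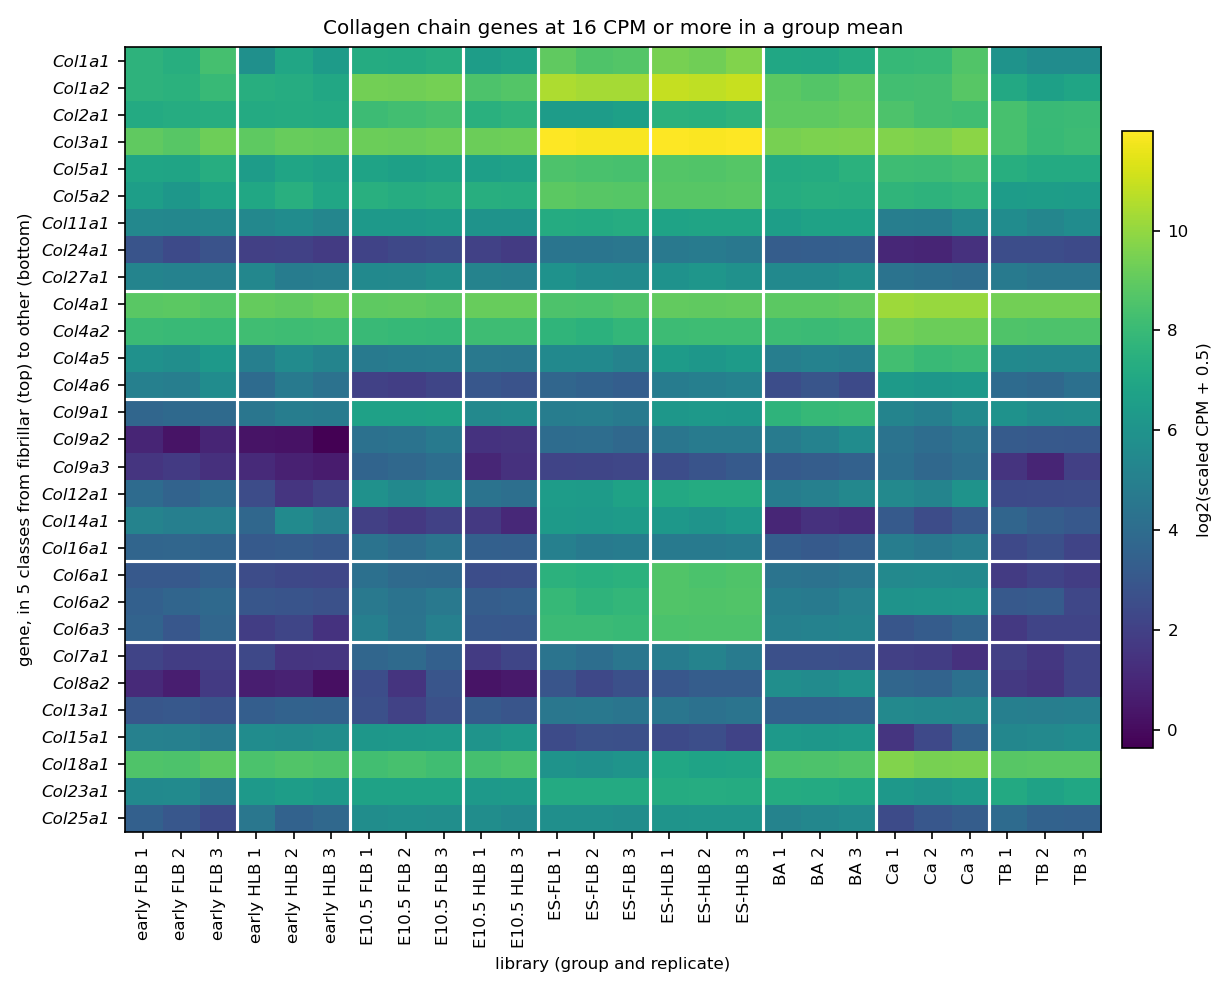
Heat map of log2(scaled CPM + 0.5) for the 29 collagen genes that reached a group mean of 16 CPM, with genes in rows by class and the 26 libraries in columns by group; the colour bar gives the log2 value. The 6 ES libraries stand out in Col6a1, Col6a2, Col6a3 and Col3a1 as high and in Col15a1 and Col18a1 as low, and the Ca libraries stand out in Col4a5 and Col4a6.

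Whether ES-derived mesenchyme carries the collagen RNA of the limb bud it was modelled on was asked in 4 comparisons, each limb type against its early and its E10.5 bud, which share ES libraries. Of 43 genes, 35 could be tested in each. In ES-FLB against early FLB, 24 collagen genes were higher and 6 lower, when 66.2% of all 13140 genes tested were called (29.3% higher, 36.9% lower). In ES-HLB against early HLB, 26 were higher and 2 lower, with 60.6% of all genes called (26.6% higher, 34.0% lower). Against the E10.5 buds, ES-FLB had 21 higher and 8 lower, with 52.7% called (25.3% and 27.4%), and ES-HLB had 28 higher and 2 lower, with 54.5% called (26.4% and 28.1%). The median log2 difference of the tested collagen genes was 1.58, 2.00, 0.77 and 2.01 in that order, and that of all genes tested was -0.08, -0.07, -0.02 and -0.02. Some genes passed the filter through the ES libraries alone, being under 1 CPM in every library of the bud, and so had to differ. These were Col6a6, Col8a1 and Col20a1 against both early buds and E10.5 HLB, Col9a2 against early HLB and Col8a2 against E10.5 HLB. On CPM as deposited the median of all genes moved to 0.23 and 0.18 against the early buds and to 0.13 in ES-HLB against E10.5 HLB, so small differences are read against that shift.

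**Figure D3:**
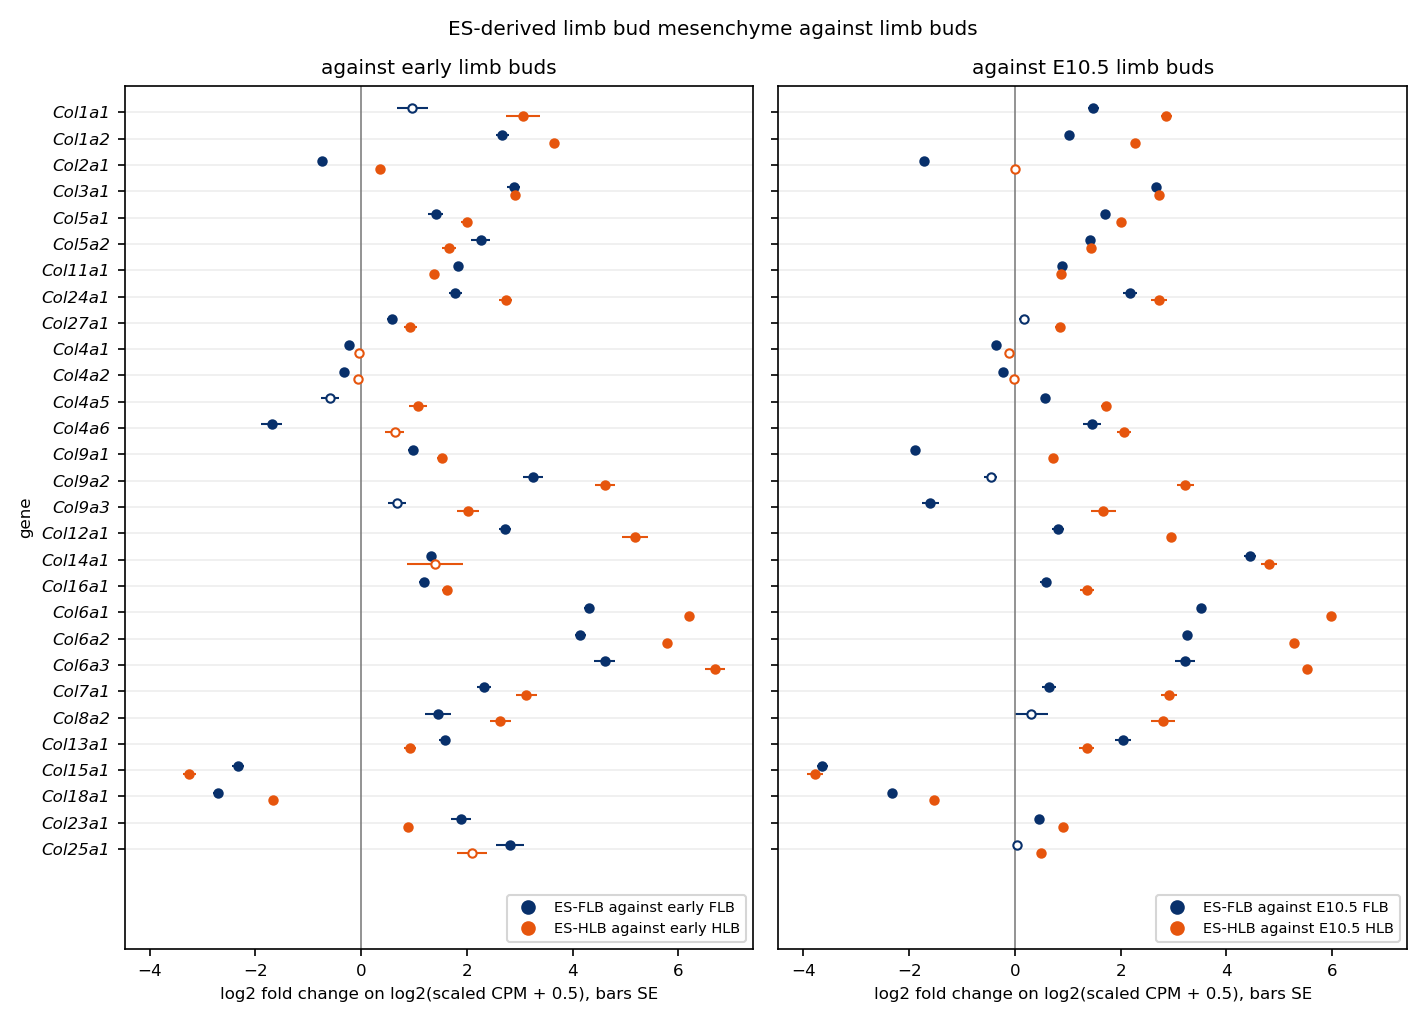
Log2 difference, on the log2(scaled CPM + 0.5) scale, of ES-derived cells from early limb buds (left panel) and from E10.5 limb buds (right panel) for the 29 more abundant collagen genes by class, with ES-FLB and ES-HLB as separate points, SE as bars, and filled points for genes called at an adjusted p below 0.001. In each limb type the 3 type VI chains plotted lie farthest to the right against the early buds, at 4.15 to 6.69, and Col15a1 and Col18a1 lie to the left in all 4 comparisons.

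In 3 of the 4 comparisons the abundant type VI chains showed the 3 largest log2 differences of the tested collagens, and in ES-FLB against E10.5 FLB they were exceeded by Col14a1. Col6a1, the chain that pairs with Col6a2 and Col6a3 in the common type VI trimer, stood at 8.18, 7.97 and 10.4 scaled CPM in early FLB and at 5.26, 4.56 and 4.30 in early HLB. In E10.5 FLB it was 17.8, 14.8 and 14.1, and in E10.5 HLB 5.49 and 5.67. The ES-FLB libraries held 193, 173 and 185 and the ES-HLB libraries 394, 358 and 391. No ES library came near a limb bud library, and the ES-HLB libraries, whose buds were lowest, were highest. The log2 difference was 4.31 ± 0.09 (SE, adjusted p = 6.39e-15) for ES-FLB and 6.20 ± 0.08 (adjusted p = 1.87e-16) for ES-HLB against the early buds, which is 19.8-fold and 73.4-fold. Against the E10.5 buds it was 3.52 ± 0.08 (11.5-fold) and 5.97 ± 0.07 (62.7-fold).

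Col6a2 followed Col6a1. Its levels were 6.11 to 14.1 scaled CPM in the 6 early bud libraries, 19.6 to 24.6 in E10.5 FLB and 9.34 and 9.92 in E10.5 HLB, against 203 to 237 in ES-FLB and 381 to 403 in ES-HLB. The log2 differences were 4.15 and 5.79 against the early buds and 3.26 and 5.28 against the E10.5 buds. Col6a3, whose longer chain carries extra von Willebrand domains, went from 11.3, 7.55 and 12.7 in early FLB and 3.22, 4.18 and 2.21 in early HLB to 270, 262 and 252 in ES-FLB and 364, 379 and 375 in ES-HLB. Its log2 differences were 4.60 ± 0.19 (24.3-fold, adjusted p = 2.75e-06) and 6.69 ± 0.18 (103-fold, adjusted p = 2.08e-08), and against the E10.5 buds 3.22 and 5.52. All 3 abundant chains were called higher in each of the 4 comparisons. Col6a6, a chain that can take the place of Col6a3, stayed low, at 6.90 to 8.34 scaled CPM in ES-FLB and 2.93 to 4.49 in ES-HLB and at 1.02 or less in the limb buds, and Col6a4 and Col6a5 reached at most 1.19 CPM in any library. The median log2 difference of the 4 tested type VI chains was 4.23, 5.99, 3.24 and 5.40. These 4 include Col6a6, which against both early buds and E10.5 HLB passed the filter through the ES libraries alone and so had to be higher.

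Across the 9 group means, Col6a1 and Col6a2 went together (Pearson r = 0.998, n = 9 groups, whose points share libraries and depth). Col6a3 did so with 1 exception: its level per kb relative to that of Col6a1 was 0.276 to 0.734 in 8 groups and 0.0851 ± 0.0218 (SD, n = 3) in Ca. Col6a1 stood at 43.7 to 46.4 scaled CPM in the Ca libraries, above all limb bud libraries, and Col6a3 at 7.28 to 12.2, below the E10.5 FLB libraries at 20.9 to 31.8.

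Among the fibrillar chains, Col3a1 led per kb in both ES groups. Col3a1, the chain of type III collagen in soft connective tissue, measured 501, 448 and 608 scaled CPM in early FLB, 486, 566 and 539 in early HLB, 600, 569 and 622 in E10.5 FLB and 597 and 608 in E10.5 HLB. The 6 ES libraries held 3719 to 4072. All limb bud libraries thus lay within a narrow range and all ES libraries far above it, with log2 differences of 2.89 ± 0.12 (7.40-fold, adjusted p = 8.11e-06), 2.91 ± 0.05 (7.54-fold), 2.67 ± 0.03 (6.38-fold) and 2.73 ± 0.03 (6.62-fold). Of the tested fibrillar chains, 8 of 10 were higher and 1 lower in ES-FLB against either bud, 10 of 10 were higher in ES-HLB against early HLB and 9 of 10 against E10.5 HLB.

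The type I chains rose less evenly. Col1a2, the α2 chain, was 196, 184 and 250 scaled CPM in early FLB and 166, 154 and 131 in early HLB, rose to 649, 629 and 680 in E10.5 FLB and 378 and 410 in E10.5 HLB, and was 1292 to 1412 in ES-FLB and 1802 to 1968 in ES-HLB. It was called higher in all 4 comparisons, with log2 differences of 2.67, 3.65, 1.03 and 2.26. Col1a1, the α1 chain, spread widely in the early buds, at 199, 164 and 321 in FLB and 57.8, 125 and 86.7 in HLB, and stood at 386 to 496 in ES-FLB and 645 to 804 in ES-HLB. It was not called in ES-FLB against early FLB (0.97 ± 0.30, adjusted p = 0.0363) although the groups did not overlap. In ES-HLB against early HLB it was called at 3.06 ± 0.32 (adjusted p = 0.000898), and that call was kept only without the second early HLB library, with an adjusted p of up to 0.00654 on leaving out any other of the 6 libraries.

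Chains that join mixed fibrils rose too. Col5a1 and Col5a2, the type V chains that start fibrils, were higher in all 4 comparisons, Col5a1 by 1.41, 2.00, 1.71 and 2.01 and Col5a2 by 2.26, 1.66, 1.43 and 1.43 on the log2 scale. Against early FLB both calls were fragile. Col5a1 was lost without early FLB replicate 1 or 2 or without any 1 of the ES-FLB libraries (adjusted p up to 0.00189), and Col5a2 without early FLB replicate 1 or any 1 ES-FLB library (up to 0.00192). Against early HLB, Col5a2 was lost without early HLB replicate 1 (0.00121). Col24a1, a minor fibrillar chain of forming bone, was at 21.2 to 27 scaled CPM in the ES libraries and 3 to 6.64 in the limb buds, with log2 differences of 1.78, 2.73, 2.18 and 2.73. Col11a1, a cartilage chain that is also made in other mesenchyme, was at 144 to 154 in ES-FLB and 113 to 116 in ES-HLB against 39.7 to 86.3 in the limb buds. Its log2 differences were 1.83, 1.38, 0.88 and 0.86, and Col11a2, its low partner, was also called in each comparison.

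Col2a1, the main collagen of cartilage, went against its class. It measured 145, 156 and 159 scaled CPM in early FLB and 276, 306 and 332 in E10.5 FLB, but 89.2, 87.2 and 99.4 in ES-FLB, below both. The log2 difference was -0.74 ± 0.06 (adjusted p = 4.16e-09) from early FLB and -1.72 ± 0.06 (adjusted p = 2.01e-14) from E10.5 FLB. In ES-HLB, at 188, 178 and 202, it lay above early HLB at 145 to 150 (0.37 ± 0.05, adjusted p = 1.9e-05) and overlapped E10.5 HLB at 177 and 202 (0.00 ± 0.06, adjusted p = 0.997).

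The FACIT chains split by type. Of 8 tested, 6 were higher in ES-FLB and 6 in ES-HLB against the early buds, with none lower. Against the E10.5 buds, 3 were higher and 2 lower in ES-FLB and 7 were higher in ES-HLB. Among the higher ones, Col20a1 (both early buds and E10.5 HLB) and Col9a2 (early HLB) passed the filter through the ES libraries alone. Their direction there was thus fixed. Col12a1, a long FACIT chain of tendon and dense connective tissue, was 14.9, 11.5 and 15.1 scaled CPM in early FLB, 5.31, 2.39 and 3.45 in early HLB, 58.1, 44.5 and 56.5 in E10.5 FLB and 19.8 and 17.2 in E10.5 HLB. It was 89.1, 84.9 and 107 in ES-FLB and 138, 152 and 151 in ES-HLB, above every limb bud library. The log2 difference was 2.72 ± 0.11, 5.18 ± 0.25 (36.4-fold, adjusted p = 2.3e-06), 0.82 ± 0.12 and 2.96 ± 0.08. The call against E10.5 FLB was lost without E10.5 FLB replicate 3 (adjusted p = 0.00163).

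Col14a1, a FACIT chain of tendon and fascia, stood far above the later buds in the ES-derived cells. It was at 30.5 to 35.0 scaled CPM in early FLB and 12.9, 46.1 and 33.5 in early HLB, fell to 2.79 to 3.62 in E10.5 FLB and 2.75 and 1.59 in E10.5 HLB, and was at 65.2 to 84.3 in the ES libraries. The log2 differences were 4.45 ± 0.11 (21.8-fold, adjusted p = 8.92e-23) and 4.81 ± 0.15 (28.0-fold) against the E10.5 buds, 1.31 ± 0.07 against early FLB and 1.40 ± 0.53 against early HLB, where the early libraries spread and the gene was not called (adjusted p = 0.0692). Col16a1 was higher in all 4, by 1.18, 1.62, 0.58 and 1.36, and Col22a1, a chain of tissue junctions, was called in none, at 5.36 to 8.09 in the ES libraries and 5.59 to 9.00 in the limb buds.

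Col9a1 and Col9a3, chains of the type IX collagen that coats type II fibrils, were like Col2a1 lower in ES-FLB than in E10.5 FLB. Col9a1 was 12.6, 14.3 and 14.7 scaled CPM in early FLB and 22.2, 29.2 and 27 in early HLB, and 103, 105 and 108 in E10.5 FLB but 44.0 and 47.3 in E10.5 HLB. In ES-FLB it was 28.6, 29.9 and 25.6, which is above early FLB (0.99 ± 0.10) and below E10.5 FLB (-1.90 ± 0.07, adjusted p = 3.86e-19). In ES-HLB, at 72.2, 81.0 and 74.5, it was above both buds (1.53 ± 0.09 and 0.73 ± 0.08). Col9a3 had the same pair of signs against E10.5, at -1.61 in ES-FLB and 1.67 in ES-HLB. Col9a2 was higher than in early FLB by 3.25 and than in E10.5 HLB by 3.23. In early HLB it was under 1 CPM in every library, at a mean of 0.568 ± 0.247 scaled CPM (SD, n = 3) against 25.3 ± 2.59 in ES-HLB. It was not called against E10.5 FLB (-0.46 ± 0.12, adjusted p = 0.0013). Across the 9 group means, Pearson's r of Col2a1 with Col9a1 was 0.76 and that of Col2a1 with Col3a1 was -0.44, over points that share libraries and depth.

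Of the type IV chains of basement membranes, Col4a1 and Col4a2, which form the common network, changed little. Col4a1 was 460, 465 and 418 scaled CPM in early FLB and 373, 365 and 400 in ES-FLB, a log2 difference of -0.24 ± 0.05 (adjusted p = 0.000258). That sign was not stable: on CPM as deposited it was 0.07 (adjusted p = 0.151), and the call was lost without early FLB replicate 1 or 2 or ES-FLB replicate 1 or 2 (adjusted p up to 0.00335). Against E10.5 FLB the difference was -0.36 ± 0.04 (adjusted p = 2.02e-09). In ES-HLB, at 510 to 528, Col4a1 was not called against early HLB at 506 to 566 (-0.05) or E10.5 HLB at 555 and 566 (-0.11). Col4a2 gave -0.32, -0.05, -0.23 and -0.01, with both ES-FLB values called and both ES-HLB values not. The call against E10.5 FLB was lost without E10.5 FLB replicate 1 or 2 or ES-FLB replicate 2 (adjusted p up to 0.00325), and both were lost on CPM as deposited.

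The paired chains Col4a5 and Col4a6, found in epithelial and smooth muscle basement membranes, moved more. Col4a6 was 31.7, 30.3 and 49.7 scaled CPM in early FLB, 15.1, 26.2 and 18.9 in early HLB, 3.29 to 4.13 in E10.5 FLB and 7.51 and 6.38 in E10.5 HLB, against 12.5, 10.9 and 9.55 in ES-FLB and 27.8, 30.8 and 33.7 in ES-HLB. The ES-FLB libraries thus lay between the stages, lower than the early buds (-1.69 ± 0.20) and higher than E10.5 FLB (1.46 ± 0.17). The first of these calls was lost without ES-FLB replicate 2 or 3 (adjusted p up to 0.00235). Col4a6 in ES-HLB was called against E10.5 HLB (2.07 ± 0.13) and not against early HLB (0.64 ± 0.18, adjusted p = 0.0103). Col4a5 was higher in ES-HLB than in early HLB (1.07 ± 0.17), E10.5 HLB (1.72 ± 0.09) and, in ES-FLB, E10.5 FLB (0.58 ± 0.09). Against early FLB it was not called, and its mean in ES-FLB was the lower, at 6.38 against 9.69 scaled CPM per kb of transcript. Its call against early HLB was lost without early HLB replicate 3 or any 1 ES-HLB library (adjusted p up to 0.00678).

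Col15a1 and Col18a1, the 2 multiplexin chains of vascular and epithelial basement membrane zones, were called lower in all 4 comparisons. Col18a1, whose end fragment is endostatin, was 387, 369 and 472 scaled CPM in early FLB, 355, 393 and 376 in early HLB, 309, 333 and 299 in E10.5 FLB and 329 and 356 in E10.5 HLB, against 63.8, 57.3 and 64.5 in ES-FLB and 128, 112 and 114 in ES-HLB. The log2 differences were -2.71 ± 0.09 (adjusted p = 9.28e-09), -1.66 ± 0.06, -2.33 ± 0.05 and -1.53 ± 0.06. Col15a1 was 26 to 80.2 across the limb bud libraries and 3.87 to 6.00 in the ES libraries, with differences of -2.33, -3.25, -3.64 and -3.78. No ES library overlapped a limb bud library in either gene.

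Markers of other cell types moved as well. The 6 endothelial markers summed to 292 to 422 scaled CPM in the limb bud libraries and 24.9 to 42.8 in the ES libraries, and 6 of 6 were called lower in each of the 4 comparisons. The 4 erythroid markers went from 2279 to 6702 down to 5.02 to 152, and the 7 surface ectoderm markers from 253 to 440 down to 98.6 to 147 in ES-FLB and 186 to 199 in ES-HLB. In the other direction, the 7 parietal endoderm and endoderm markers summed to 162 to 183 in ES-FLB and 114 to 123 in ES-HLB against 27.8 to 116 in the buds. The 9 limb bud mesenchyme markers summed to 791 to 807 in ES-FLB and 1054 to 1082 in ES-HLB against 946 to 1761 in the buds. The part of these cells in the falls of Col15a1 and Col18a1 and in the levels of the type IV chains was not tested.

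The remaining chains were mostly low. Col23a1, a transmembrane chain, was at 145 to 154 scaled CPM in the ES libraries and 28.9 to 108 in the limb buds, and was called higher in all 4 comparisons by 1.89, 0.88, 0.45 and 0.91. The call against early FLB was lost without any 1 of the ES-FLB libraries (adjusted p up to 0.00334). Col13a1, a transmembrane chain of cell junctions, was 18.5 to 23.6 in the ES libraries and 3.78 to 11.1 in the limb buds, with differences of 1.58, 0.93, 2.05 and 1.36. Col7a1, the chain of anchoring fibrils under the epidermis, was 16.7 to 35.5 against 2.39 to 14.5, with differences of 2.33, 3.12, 0.65 and 2.91, of which the call against E10.5 FLB was lost without ES-FLB replicate 3 (adjusted p = 0.00131). Col25a1, a membrane collagen made by developing muscle and neurons, was higher in ES-FLB than in early FLB (2.82 ± 0.27) and not called against E10.5 FLB, at 52.1 to 55.8 against 50.9 to 54.2 (0.04 ± 0.07, adjusted p = 0.600). Without early FLB replicate 2 or any 1 ES-FLB library, the first of these was no longer called (adjusted p up to 0.00185).

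Some of these calls were also lost with all libraries in one model, in limma without trend and robust or with a replicate block. Against E10.5 FLB these were Col12a1, Col16a1, Col23a1, Col4a1, Col4a2, Col4a5 and Col7a1 in ES-FLB, with adjusted p up to 0.00288, 0.00501, 0.00464, 0.00228, 0.0362, 0.00362 and 0.0106 over the alternatives that kept all libraries. Against early HLB they were Col1a1, Col2a1 and Col4a5 in ES-HLB, with adjusted p up to 0.0129, 0.00284 and 0.0102 over the same alternatives. Against early FLB they were Col4a1, Col4a2 and Col5a1 in ES-FLB (up to 0.151, 0.876 and 0.00207). Against E10.5 HLB, Col9a3 in ES-HLB was lost (0.00125).

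The forelimb and hindlimb were compared within each setting. In the early buds the hindlimb was the older by the study's text, so limb type and stage cannot be told apart there. In early HLB against early FLB, 7 collagen genes were higher and 7 lower of 31 tested, with 20.1% of all genes called (9.03% higher, 11.1% lower). In E10.5 HLB against E10.5 FLB, 4 were higher and 18 lower of 33, with 26.1% called (15.2% higher, 10.9% lower). Among the 18, Col8a1 and Col8a2 were under 1 CPM in both E10.5 HLB libraries. They passed the filter through E10.5 FLB alone and so had to be lower. In ES-HLB against ES-FLB, 22 were higher and 3 lower of 36, with 25.1% called (12.8% higher, 12.3% lower). The median difference of the tested collagen genes was -0.25, -0.43 and 0.41 on the log2 scale, and that of all genes was -0.01, 0.03 and 0.00. The hindlimb side was thus the lower in the E10.5 embryo for most called collagens and the higher in culture. For E10.5 the labels give only the day, not how far each limb had developed. Limb type and maturity therefore cannot be told apart there either.

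**Figure D4:**
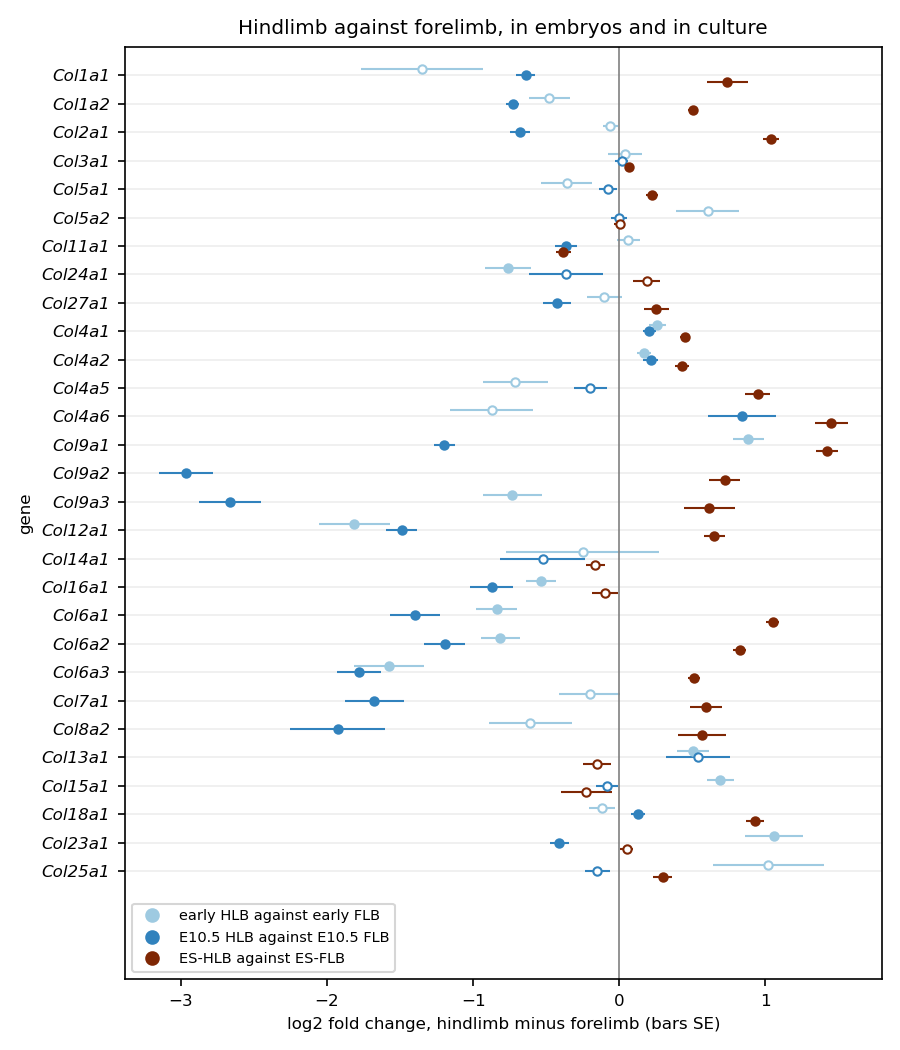
Log2 difference of hindlimb from forelimb libraries, on the log2(scaled CPM + 0.5) scale, for the 29 more abundant collagen genes by class in early buds, E10.5 buds and ES-derived cells, with SE as bars and filled points for genes called at an adjusted p below 0.05. The 3 type VI chains plotted and Col12a1 lie at -0.81 to -1.81 in the embryo and at 0.51 to 1.05 in culture.

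The abundant type VI chains showed this change of sign. Col6a1 was lower in hindlimb than in forelimb buds by 0.84 ± 0.14 at the early stage (adjusted p = 0.00186) and by 1.40 ± 0.17 at E10.5 (adjusted p = 2.91e-09) on the log2 scale, and higher in ES-HLB than in ES-FLB by 1.05 ± 0.04 (adjusted p = 5.25e-18). Col6a2 gave -0.81, -1.20 and 0.82 and Col6a3 -1.58, -1.78 and 0.51, each of them called. The call of Col6a3 in culture was lost with all libraries in one model (adjusted p = 0.108). Col12a1 behaved alike, at -1.81 ± 0.24, -1.49 ± 0.11 and 0.65 ± 0.07. The difference between the limb-type difference in culture and that in the early embryo was then tested as an interaction, which holds the same stage difference between the early buds. It was 1.89 ± 0.13 for Col6a1 (adjusted p = 2.8e-09), 1.64 for Col6a2, 2.09 for Col6a3 and 2.46 ± 0.32 for Col12a1 (adjusted p = 0.000478). Over all tested collagens, 19 of 36 had a positive interaction and 7 a negative one, with 22.6% of all genes called (12.7% positive, 9.92% negative). The 7 include Col6a6 and Col8a1, which were under 1 CPM in all early bud libraries, so that their values mirror the difference between the ES groups.

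Col2a1 and the type IX chains also changed sign between E10.5 and culture. Col2a1 was not called in the early buds (-0.06 ± 0.05, adjusted p = 0.423), lower in hindlimb at E10.5 (-0.68 ± 0.07) and higher in ES-HLB (1.04 ± 0.06), with an interaction of 1.10 ± 0.08 (adjusted p = 4.76e-09). Col9a1 was higher in early HLB (0.88 ± 0.11), lower in E10.5 HLB (-1.20 ± 0.07) and higher in ES-HLB (1.42 ± 0.07). Col9a2 and Col9a3 were lower in E10.5 HLB by 2.97 and 2.66 and higher in ES-HLB by 0.72 and 0.62. The ES-HLB call of Col9a3 was lost without ES-HLB replicate 3 (adjusted p = 0.0917). Col11a1, also a cartilage chain, did not change sign: it was lower on the hindlimb side at E10.5 (-0.36 ± 0.07) and in culture (-0.38 ± 0.05), with an interaction of -0.44, and its E10.5 call was lost in limma without trend and robust (adjusted p = 0.0561).

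Col4a1 and Col3a1 did not change sign either. Col4a1 was higher on the hindlimb side in each setting, by 0.26 ± 0.06, 0.21 ± 0.04 and 0.45 ± 0.04 on the log2 scale, though the early call was lost without early HLB replicate 3 (adjusted p = 0.0504). In limma without trend and robust both embryonic calls were lost (adjusted p = 0.0558 and 0.106). Its interaction was not called (0.19 ± 0.07, adjusted p = 0.0549). Col3a1 did not pass the test in the early buds (0.04 ± 0.12) or at E10.5 (0.02 ± 0.04), and its small difference in culture (0.07 ± 0.03, adjusted p = 0.0495) was lost without ES-FLB replicate 2 or 3 or ES-HLB replicate 1 or 3 (adjusted p up to 0.254). Col18a1 was not called in the early buds, where its sign was negative (-0.12 ± 0.09, adjusted p = 0.395). It was 1.90-fold higher in ES-HLB than in ES-FLB (0.93 ± 0.06), with an interaction of 1.05 ± 0.12 (adjusted p = 2.76e-05). In the E10.5 buds its difference of 0.13 ± 0.05 (adjusted p = 0.0487) was lost without E10.5 FLB replicate 1 or 3 or E10.5 HLB replicate 3 (adjusted p up to 0.442) and on CPM as deposited.

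The 2 stages of the limb bud were compared for each limb. By the study's text the FLB interval is longer than the HLB interval, so the numbers of calls in the 2 limbs are not set against each other. In E10.5 FLB against early FLB, 17 collagens were higher and 3 lower of 33 tested, with 43.8% of all genes called (15.8% higher, 28.0% lower). Col8a1, among the higher ones, was under 1 CPM in every early FLB library and so had to be higher. In E10.5 HLB against early HLB, with 2 libraries on the later side, 3 were higher and 1 lower of 30, with 5.02% called (1.55% higher, 3.47% lower). The FACIT chains led in FLB, where 5 of 7 tested were higher with a median log2 difference of 1.90. Col9a1 rose by 2.88 ± 0.08 (7.38-fold, adjusted p = 3.75e-15), Col9a2 by 3.71 ± 0.19, Col12a1 by 1.90 ± 0.12 and Col2a1 by 0.98 ± 0.06. Col1a2 rose by 1.64 ± 0.12, a call that was lost without early FLB replicate 1 or E10.5 FLB replicate 3 (adjusted p up to 0.00168). Col14a1, Col4a6 and Col4a5 fell by 3.13, 3.15 and 1.16, the last not called without any 1 of the E10.5 FLB libraries (adjusted p up to 0.0016).

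In HLB the 4 called genes were Col1a2 (1.39 ± 0.09, adjusted p = 2.48e-05), Col12a1 (2.23 ± 0.26, adjusted p = 0.000382), Col9a1 (0.80 ± 0.11, adjusted p = 0.000619) and Col4a6 (-1.43 ± 0.20, adjusted p = 0.000948). Each was lost on leaving out either E10.5 HLB library, and all but Col1a2 also without early HLB replicate 3, with adjusted p up to 0.0077 for Col1a2, 0.0181 for Col12a1, 0.0275 for Col9a1 and 0.0372 for Col4a6. Col14a1 went from 12.9, 46.1 and 33.5 to 2.75 and 1.59 scaled CPM and was not called (-3.41 ± 0.65, adjusted p = 0.0294). The stage differences of the 2 limbs were not tested against each other.

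The other embryonic tissues were each set against E10.5 FLB, so these comparisons share its 3 libraries. In BA, 14 collagens were higher and 10 lower of 34 tested, with 21.3% of all genes called (10.9% higher, 10.4% lower). Col8a1, among the lower ones, was under 1 CPM in every BA library and so had to be lower. Col2a1 and Col9a1 were higher and Col9a3 was lower: Col2a1 was 484, 490 and 547 scaled CPM against 276, 306 and 332 (0.74 ± 0.06, adjusted p = 1.03e-06), and Col9a1 was 206, 243 and 255 against 103, 105 and 108 (1.14 ± 0.06, adjusted p = 5.86e-12). Col9a3, at a mean of 9.39 scaled CPM against 14.0, gave -0.55 ± 0.14 (adjusted p = 0.00676), a call that was lost without E10.5 FLB replicate 3 (0.0705) and with all libraries in one model. Col8a2, a short-chain network collagen of corneal endothelium, was 53.3, 48.7 and 59.4 against 5.43, 2.30 and 6.89 (3.44 ± 0.42, adjusted p = 0.00699), and no library of another group exceeded 17.9. Col1a2 was lower (-0.52 ± 0.05). Col16a1 (-0.98 ± 0.13) and Col7a1 (-1.04 ± 0.16) were also lower. Of the type VI chains, Col6a1 (0.40 ± 0.11) lost its call without E10.5 FLB replicate 2 or 3 (adjusted p up to 0.0612) and Col6a2 (0.33 ± 0.11) without BA replicate 1 or 3 or E10.5 FLB replicate 2 (up to 0.213). The neural and neural crest markers summed to 46.6 to 150 scaled CPM in BA and 18.9 to 23.6 in E10.5 FLB, and their part in these differences was not tested.

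**Figure D5:**
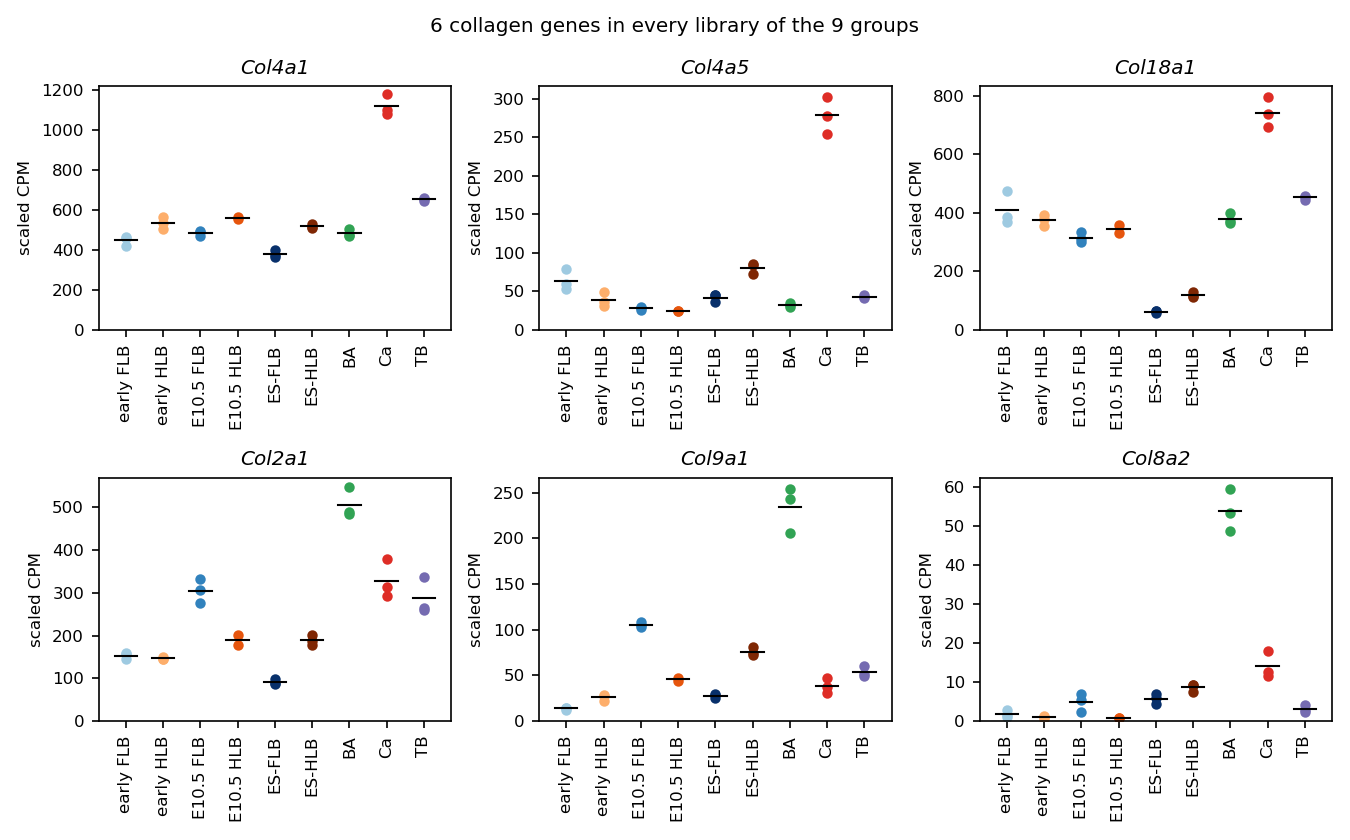
Scaled CPM of Col4a1, Col4a5, Col18a1, Col2a1, Col9a1 and Col8a2 in each of the 26 libraries, with 1 panel for each gene, groups along the horizontal axis and 1 point for each library. Ca libraries are highest for Col4a1, Col4a5 and Col18a1, BA libraries for Col2a1, Col9a1 and Col8a2, and ES-FLB libraries are lowest for Col18a1 and Col2a1.

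In Ca, 16 collagens were higher and 12 lower of 34, with 75.6% of all genes called (36.9% higher, 38.7% lower). Col17a1, among the lower ones, was under 1 CPM in every Ca library and so had to be lower. The class that stood out was type IV, with 4 of 4 tested chains higher and a median log2 difference of 2.32 against -0.03 over all genes. Col4a1 was 1182, 1081 and 1103 scaled CPM against 490, 496 and 471 in E10.5 FLB (1.21 ± 0.04, adjusted p = 4.88e-13), and Col4a2 gave 1.34 ± 0.05. Col4a5 was 302, 254 and 278 against 26.1, 27.8 and 29.1 (3.30 ± 0.07, 9.87-fold, adjusted p = 1.6e-15), and Col4a6 was 82.6, 72.6 and 80.1 against 3.57, 3.29 and 4.13 (4.25 ± 0.12, 19.0-fold). Type IV chains made up 37.3% of the collagen CPM of Ca. Col18a1 was higher by 1.24 ± 0.05 while Col15a1, of the same kind, was lower by 3.78 ± 0.56 (adjusted p = 0.00356), at 2.43, 4.62 and 11 against 71.6, 75.6 and 80.2. Col13a1 was 38.9 to 43.3 scaled CPM in Ca (2.89 ± 0.15). Col11a1 (-1.27 ± 0.14) and Col27a1 (-1.35 ± 0.10), both cartilage-related fibrillar chains, were lower, as were Col9a1 (-1.47 ± 0.14) and Col11a2 (-0.95 ± 0.25). Other cartilage chains were not called: Col2a1 (0.10 ± 0.12, adjusted p = 0.444), Col9a2 (-0.15 ± 0.14, adjusted p = 0.322) and Col9a3 (0.21 ± 0.15, adjusted p = 0.213). Col1a1 was higher (0.91 ± 0.22, adjusted p = 0.0183) and Col1a2 lower (-0.90 ± 0.17, adjusted p = 0.0075), the former not called without E10.5 FLB replicate 1 or 2 (adjusted p up to 0.0628).

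Markers of several cell types were also high in Ca. The 6 endothelial markers summed to 892 to 955 scaled CPM, against 292 to 296 in E10.5 FLB, with 6 of 6 called higher. The 7 parietal endoderm and endoderm markers summed to 554, the lowest, to 1954, the highest, against 28.8 to 33.6. The 4 erythroid markers summed to 22399 to 32561 against 2625 to 3783. Their part in the levels of the type IV chains and Col18a1 was not tested.

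In TB, 13 collagens were higher and 18 lower of 34, with 49.1% of all genes called (25.1% higher, 24.1% lower). Col5a3, among the higher ones, was under 1 CPM in every E10.5 FLB library and so had to be higher. The 4 tested type IV chains were again all higher, with Col4a1 at 648, 657 and 661 scaled CPM (0.43 ± 0.04, adjusted p = 2.66e-12), Col4a2 at 0.63 ± 0.04, Col4a5 at 0.62 ± 0.08 and Col4a6 at 1.95 ± 0.16 on the log2 scale. Col12a1, Col1a2, Col3a1 and the 3 abundant type VI chains were among the lower ones: Col12a1 was 4.84, 5.10 and 5.24 against 44.5 to 58.1 (-3.26 ± 0.12, adjusted p = 2.55e-22), Col1a2 was 99.5 to 136 against 629 to 680 (-2.47 ± 0.13), and the type VI chains were lower by 2.06, 1.68 and 2.79. Col3a1 was lower by 1.08 ± 0.13. Col5a1, also fibrillar, was higher, at a mean of 154.0 against 107.4 (0.52 ± 0.06, adjusted p = 1.06e-09). Col2a1, at 261 to 338, overlapped E10.5 FLB (-0.09 ± 0.14, adjusted p = 0.653). Col22a1 was called in this comparison (1.10 ± 0.15, adjusted p = 1.9e-07), at 12.5 to 15.1 against 5.59 to 7.40.

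Ratios of partner chains, taken per kb within each library, differed between groups. Col4a1 to Col4a2 stayed between means of 1.68 and 1.94 in all 9 groups. Col4a5 to Col4a6 ran from 1.75 ± 0.14 in early FLB to 7.74 ± 0.756 in E10.5 FLB, and Col1a2 to Col1a1 from 1.07 ± 0.192 in early FLB to 4.71 ± 0.0931 in E10.5 FLB. These ratios depend on the transcript lengths chosen, so only the order of groups for 1 pair is read from them.

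Genes that serve collagens were described from lists chosen with earlier results of these data known. Their counts are to be read against the shares of all genes called in the same 4 comparisons, which were 29.3, 26.6, 25.3 and 26.4% higher and 36.9, 34.0, 27.4 and 28.1% lower. Of 20 genes for folding and modification in the endoplasmic reticulum, 12, 12, 12 and 11 were higher in the 4 ES comparisons (ES-FLB and ES-HLB against the early buds, then against the E10.5 buds) and 3, 2, 1 and 1 lower. P4ha2, a prolyl 4-hydroxylase subunit, rose by 0.78, 1.80, 1.57 and 1.90 on the log2 scale, and Plod2, a lysyl hydroxylase of cross-linking sites, by 0.56, 1.17, 0.39 and 0.87. The collagen chaperone Serpinh1 differed in sign (-0.54, -0.34, 0.29 and 0.00), and Ppib, a prolyl isomerase, fell by 0.49, 0.53, 0.25 and 0.33. In Ca, 18 of the 20 were higher than in E10.5 FLB and 1 lower, where 36.9% of all genes were higher and 38.7% lower.

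Outside the cell, 6, 8, 7 and 8 of 12 tested processing and cross-linking genes were higher and 2, 1, 1 and 2 lower in ES. Lox, the lysyl oxidase that starts cross-links, rose by 2.43, 2.61, 1.81 and 2.19, and Bmp1, a C-propeptidase of fibrillar procollagens, by 2.15, 1.43, 0.50 and 0.88, while Pcolce2, an enhancer of that cleavage, fell by 2.17, 2.56, 1.76 and 2.32. All 4 tested cleaving enzymes were higher in each comparison, among them Mmp14 by 1.66, 1.44, 1.40 and 1.41 and the cathepsin Ctsk by 2.71, 2.81, 3.13 and 2.81. In both E10.5 buds 4 of the 6 listed enzymes, Mmp9 and Ctsk among them, averaged under 1 CPM. Against these buds both passed the filter mainly through the ES libraries, so their direction was largely fixed. Ctsk passed the filter in no comparison between limb bud groups, so the same holds for its values against the early buds. Mmp9 did not pass it in E10.5 HLB against early HLB, so the same holds for Mmp9 against early HLB. Of the receptors, 5 of 8, 6 of 8, 4 of 8 and 4 of 7 tested were higher and 1, 2, 1 and 0 lower. Itga11, higher against both early buds, passed the filter neither in early HLB against early FLB nor in E10.5 HLB against early HLB. Its direction against the early buds was thus largely fixed. The lower ones were the collagen-binding integrin Itga2, by 1.57, 1.78 and 1.25 in the 3 comparisons where it was tested, and Itga1 in ES-HLB against early HLB (-0.74). Of 8 transcription factors with a known role at collagen genes, 4, 3, 2 and 3 were higher and 1, 0, 4 and 2 lower. Runx2, an osteoblast factor, rose by 4.53, 4.53, 1.74 and 3.06, while Sp7, another, gave -0.07, -0.10, 0.06 and 0.08 and was called in none. Runx2 did not pass the filter in E10.5 HLB against early HLB. Against early HLB it thus passed mainly through the ES-HLB libraries, so its direction there was largely fixed. Creb3l1, which acts in bone cells that secrete type I collagen, rose by 1.13, 3.51, 2.38 and 3.45. Sox9, the factor of cartilage precursors that acts at Col2a1, gave 1.14, 1.00, -1.25 and -0.32, of which the second was not called. Scx, the tendon factor, gave 2.87, 2.11, -1.51 and -0.81, again with the second not called.

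Chains below 16 scaled CPM in all group means are given by their range. Col19a1, Col28a1 and Col6a4 stayed at or below 1.31 CPM in each library, and Col5a3 was at most 1.98, its highest, in TB. Col4a3 and Col4a4, the chains of mature kidney basement membrane, were highest in Ca, at 0.559 to 0.941 and 0.941 to 1.79, where 3 reads are worth 0.360 to 0.404 CPM. Col17a1, the hemidesmosome chain of surface ectoderm, was at 2.26 to 13.1 in the limb buds, 4.21 to 10.03 in the ES libraries and 0.699 to 0.941 in Ca. Col20a1, a FACIT chain, was at 2.43 to 6.27 in the ES libraries and at most 1.81 in the limb buds. Col8a1, a short-chain network collagen of vessel walls, was at 0.0511 to 0.109 in the early buds, 2.79 to 3.79 in E10.5 FLB, 0.183 and 0.354 in E10.5 HLB, 8.34 to 10.2 in ES-FLB and 3.34 to 4.22 in ES-HLB.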

How the data were processed

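RNA was extracted from sorted ES-derived cells or from dissected tissue and sequenced as stranded mRNA libraries. Per the labels and the study's methods, the authors mapped reads with HISAT2 2.0.4 to mm10, counted them per gene with Cuffdiff, tested with edgeR 3.16.2 and deposited CPM, which sum to 1000000 in each library. The deposited CPM were not treated as counts, so the count tests first planned were replaced. Libraries were rescaled by trimmed means of log ratios (30% and 5% trims) over 26 libraries, a pseudocount of 0.5 was added, and genes at 1 CPM in 3 compared libraries were tested with limma 3.58.1 (trended, robust) in R 4.3.3, with Benjamini-Hochberg adjustment over all genes tested. Other steps used Python 3.11.15. The share of values that were whole reads (within 0.05) was lower in the early limb buds than elsewhere. The fit was tested on simulated data, where the least sensitive comparison recovered fewer changed genes than first required, and the requirement was lowered.

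Collagen genes, their classes and the other lists were chosen with earlier results of these data known. Genes were named by class, by the size of their differences and by their calls. Alternatives were CPM as deposited, median-of-ratios scaling, pseudocounts of 0.1 and 1, no filter and a filter of 5 CPM, all libraries in one model, limma without trend and robust, a replicate block, the second E10.5 HLB library kept, and each library left out in turn. Replicate numbers were not used as pairs in the main tests, and correlations of same-numbered deviations were weak (-0.11 to 0.15). All 6 libraries still correlated best with their own number in ES-HLB against ES-FLB and in BA and Ca against E10.5 FLB. Gene positions came from GENCODE vM21 and promoter windows from RefSeq, both on GRCm38. Intervals of depth and floors cover counting error only.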

Additional observations from a re-analysis of the deposited data

Results flagged for a closer look

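For 26 collagen genes the difference between hindlimb and forelimb in culture (ES-HLB against ES-FLB) differed from that in the early embryo (early HLB against early FLB), by limma's interaction term at an adjusted p below 0.05. Over all 13627 genes tested, 22.6% were called (12.7% positive, 9.92% negative). All 12 libraries entered, and the values below are the difference in culture minus that in the embryo, on the log2(scaled CPM + 0.5) scale. A positive value means that the hindlimb side stood relatively higher in culture.

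Among fibrillar chains the difference was 2.09 for Col1a1, 0.98 for Col1a2, 1.10 for Col2a1, 0.95 for Col24a1 and -0.44 for Col11a1. Type IV chains gave 0.26 for Col4a2, 1.66 for Col4a5 and 2.33 for Col4a6. All called FACIT chains were positive, with 0.54 for Col9a1, 1.37 for Col9a2, 1.35 for Col9a3, 2.46 for Col12a1, 0.44 for Col16a1 and 0.65 for Col22a1. The abundant type VI chains gave 1.89 for Col6a1, 1.64 for Col6a2 and 2.09 for Col6a3, and the low Col6a6 gave -1.21. Col6a6 and Col8a1 were under 1 CPM in all early bud libraries, so their values mirror the difference between the ES groups. Of the other chains, Col7a1 (0.80), Col8a2 (1.17) and Col18a1 (1.05) were positive. Col8a1 (-1.15), Col13a1 (-0.66), Col15a1 (-0.92), Col17a1 (-0.84) and Col23a1 (-1.01) were negative. Leaving out 1 library ended the call of Col16a1 (early FLB 2, early HLB 3, ES-FLB 2 or 3 or ES-HLB 3, adjusted p up to 0.0682), of Col7a1 (early FLB 1, early HLB 2 or 3, ES-FLB 1 or 2 or ES-HLB 2, up to 0.0868) and of Col8a2 (ES-FLB 2, 0.0513). The calls of Col15a1 and Col16a1 were lost with all libraries in one model (adjusted p = 0.145 and 0.0650), and that of Col4a2 in limma without trend and robust (0.0607). The early buds were unsorted and sequenced more deeply, and the part of this in the differences was not tested. By the study's text the early HLB was older than the early FLB, so stage and limb type cannot be told apart in the embryonic difference.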

How the results depend on the processing

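The number of collagen genes called in E10.5 HLB against early HLB, where the later stage has 2 libraries, was 4 as reported, 1 with no filter, 7 with all libraries in one model, 0 for limma without trend and robust and 8 with the second E10.5 HLB library kept, and the cause was not tested. In BA against E10.5 FLB the number was 24 as reported and 15 for limma without trend and robust. The summed collagen ratios of ES-FLB and ES-HLB to the early and then the E10.5 buds were 3.02, 3.86, 2.29 and 3.34, and 3.74, 4.61, 2.41 and 3.71 on CPM as deposited. Of 120 counts of called collagens under these alternatives and the replicate block, 114 lay within 1.5 times the reported one. Of the called single-gene values, 1 changed sign: Col4a1 in ES-FLB against early FLB, from -0.24 to 0.073 on CPM as deposited, where it was no longer called.

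Whether replicate numbers mark pairs is not stated, and the main tests did not use them. With the replicate number as a block, 12 collagen genes were called in E10.5 HLB against early HLB in place of 4, and in the other comparisons their number moved by less than 1.5 times. In the 9 comparisons with 3 pairs, deviations correlated best with those of the same number for 33 of 54 libraries (a library counted once in each comparison), so not for every one. It was 6 of 6 in ES-HLB against ES-FLB, BA against E10.5 FLB and Ca against E10.5 FLB, and 0 of 6 in TB against E10.5 FLB. The source of these matches was not tested.

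On leaving out 1 library at a time, the called collagens ranged from 21 to 31 (ES-FLB against early FLB), 22 to 30 (ES-HLB against early HLB), 27 to 28 and 26 to 30 (against the E10.5 buds), 14 to 24 and 0 to 7 (stages, FLB and HLB), 10 to 14, 19 to 22 and 21 to 25 (hindlimb against forelimb in early buds, E10.5 buds and culture), 17 to 23 (BA), 26 to 29 (Ca), 29 to 31 (TB) and 22 to 27 (interaction). The 4 summed ratios ranged from 2.90 to 3.20, 3.77 to 3.97, 2.24 to 2.33 and 3.29 to 3.40. Depth limits what can be said of chains near the floor of 3 reads.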

Other observations

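The E10.5 HLB library that was left out gave no usable value for 8493 genes of the table, most of them on chromosomes listed at 0 throughout. Among them were 12 collagen genes, which included Col12a1, Col1a2, Col7a1 and all type IV chains at more than 1 CPM elsewhere in the limb buds. Of the collagen genes it did measure, CPM as deposited was 939 for Col3a1, 538 for Col18a1 and 285 for Col2a1.

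Emid2, an older symbol of Col26a1, does not match the symbol pattern and was not counted among the collagen chain genes.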
